A study of Mus musculus with 18 samples.

Results

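The cytosolic ribosomal protein genes were described in intestinal stem cells of mice with a conditional knock-out of Dlg1, a scaffold protein of epithelial cell polarity, and of wild-type mice. Members were all protein-coding genes whose mouse symbol begins with Rps or Rpl and a number, plus Rpsa, Rplp0, Rplp1 and Rplp2, without symbols ending in -ps and without the Rps6k kinases. This rule gave 86 of the 43432 genes in each of the 2 deposited count tables. Of these, 77 were canonical ribosomal proteins, with 31 of the small subunit, 43 of the large subunit and 3 of the stalk. A further 8 were paralogues (Rps27l, Rps27rt, Rpl3l, Rpl7l1, Rpl10l, Rpl22l1, Rpl36al and Rpl39l). Rps19bp1 matched the rule by its name only, since it encodes a protein that binds Rps19 and regulates Sirt1. The ribosome proteins Fau and Rack1 fell outside the rule and are given separately.

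Ribosomal proteins clothe the ribosomal RNAs of the small subunit, which decodes the messenger RNA, and of the large subunit, which joins the amino acids. Most of their messenger RNAs begin with a C followed by a run of pyrimidines, the terminal oligopyrimidine tract through which mTOR signalling controls their translation. Cycling cells of the intestinal crypt make many ribosomes, and nearly every ribosomal protein gene has left processed pseudogenes in the mouse genome.

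The samples were intestinal stem cells sorted by flow cytometry, with 5000 to 10000 cells each, from mice of 8 to 16 weeks. The groups were 5 Dlg1 conditional knock-out (KO) libraries and 5 wild-type (WT) libraries at 14 days after tamoxifen injection, and 4 KO and 4 WT libraries at 2 days (48 hours). All 4 groups received tamoxifen, and the labels name no Cre driver. They do not say whether each library came from a separate animal, so each p-value reflects the spread among these libraries alone, and that spread may be technical. At 2 days the KO columns carry the prefix Dmin, taken here to mean Dlg1 minus. Library numbers follow the order of columns in each table and pair nothing.

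Total counts ranged over 11133674 to 15706057 per library at 14 days and 14816933 to 40544439 at 2 days, and levels are given as CPM, the count divided by a TMM-scaled library size. All 10 stem cell markers were detected in every library, including Lgr5 and Olfm4. Dlg1 itself overlapped between genotypes, with 41.8 to 100.8 CPM in KO and 60.5 to 85.8 CPM in WT at 14 days, and 38.4 to 58.0 CPM in KO and 48.3 to 69.5 CPM in WT at 2 days. The labels do not give the deleted part of the gene, so a count over the whole gene checks little. Arhgap31 did separate the genotypes, with 0.601 to 2.90 CPM in KO against 6.61 to 13.0 CPM in WT at 14 days, and 0.246 to 0.8293 CPM in KO against 1.67 to 5.94 CPM in WT at 2 days. Of all genes, 0.257% at 14 days and 1.94% at 2 days had every KO library below every WT library. Arhgap31 was picked with earlier results of these data known, so it is no independent check of the labels. At 14 days, 12 gene models made of satellite-like repeats, picked after their values were seen, held 0.0552% to 47.0% of the counts of KO libraries and 0.0705% to 10.1% of those of WT libraries. At 2 days they held at most 0.000236% in KO and 0.000326% in WT libraries. Among the 14 day libraries, 2 stood apart from their groups. In WT library 3 the canonical members were above the rest of the group in 10 of 10, 36 of 38 and 21 of 29 genes, and in KO library 5 they were below it in 10 of 10, 37 of 38 and 20 of 29, in the 3 classes of sequence sharing described below. Values without WT library 3 are given beside those it moved most.

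The recorded level of a ribosomal protein gene went with how much of its coding sequence also stands in other genes. Each member's principal coding sequence was split into overlapping windows of 50 bases, and each window was looked for, letter for letter, in the transcripts of every other annotated gene, pseudogenes included. The first window of the coding sequence of Rpl8, among the most highly counted members, was found in no other gene. Those of Rps6 and Rpl24, which are among the lowest, were found in 7 and 3 other genes. They are shown because this contrast between unique and shared sequence runs through the levels below. Capitals mark the start codon.
Rpl8: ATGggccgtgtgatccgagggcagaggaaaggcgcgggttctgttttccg
Rps6: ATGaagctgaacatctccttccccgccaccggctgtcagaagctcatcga
Rpl24: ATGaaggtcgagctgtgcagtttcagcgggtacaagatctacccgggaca
In the GRCm38 build Rpl8 lies at chr15:76904078-76906314 on the plus strand, Rps6 at chr4:86854660-86857412 on the minus strand and Rpl24 at chr16:55966275-55971435 on the plus strand. The other holders of the Rps6 window included the pseudogenes Rps6-ps1, Rps6-ps2 and Rps6-ps4. Those of the Rpl24 window included Gm28037, whose annotation overlaps Rpl24 itself. Genes that overlap a member were not left out of the search, so some shared windows can lie at the member's own position. Over the whole coding sequence, 8.73% of the windows of Rpl8 were shared, against all windows of Rps6, held in 14 other genes, and of Rpl24, held in 10.

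Of the 86 members, 16 had fewer than 50% of their windows shared, 39 had 50% or more but not all shared, and 31 had every window shared. Levels were taken as TMM-scaled CPM per kilobase of merged exon length, averaged over the WT means of both times, and are compared between genes on this scale only. The median level of the canonical members was 286 CPM per kb for the 10 with fewer than 50% of windows shared, 37.9 for the 38 with 50% or more but not all, and 5.81 for the 29 with all windows shared. All 10 of the first class were among the 20 highest levels, and the 20 lowest levels all belonged to members whose windows were all shared. Over the 77 canonical members, the Spearman correlation of level with the percentage of windows shared was -0.81, a description across genes that share libraries and annotation. How the authors' counting treated reads that fit several places is not given in the sources used here, and the part of sequence sharing in these levels was not tested.

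**Figure D1:**
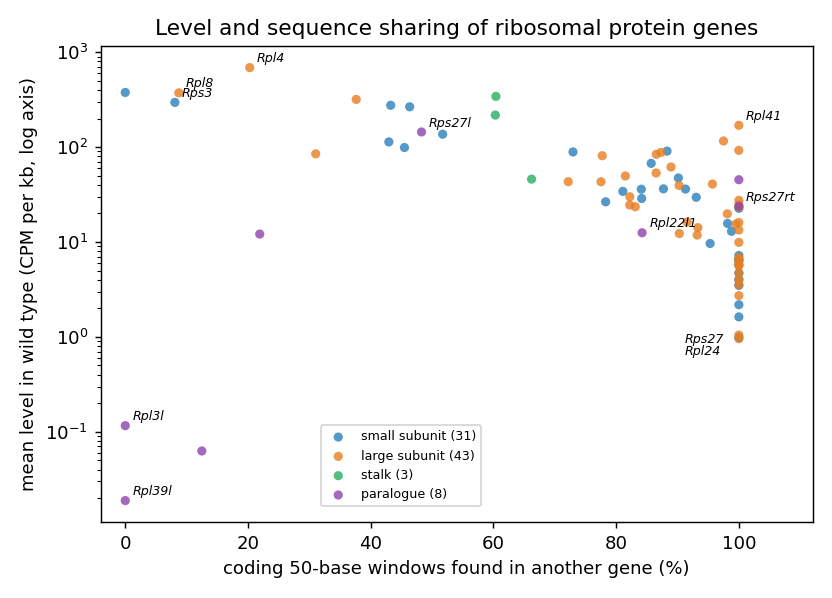
Each point is a ribosomal protein gene, with the percentage of its coding 50-base windows found in another gene on the x axis and its mean WT level in CPM per kb on a log y axis; colours give the role. Rpl8, Rps3 and Rpl4 stand at the upper left, and the members with all windows shared fall to 0.958 CPM per kb at the right.

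The 4 highest canonical members per length included Rpl4 (689 CPM per kb) and Rpl8 (373) of the large subunit and the stalk protein Rplp1 (343). The 4 lowest were Rpl24 (0.958), Rps27 (0.984), Rpl23a (1.05) and Rps13 (1.62). The highest was 718.5-fold above the lowest, although both proteins are present in single copy in a ribosome. Rpl24 had 11 to 22 counts in KO libraries and 4 to 63 in WT libraries at 14 days, and 5 to 15 in KO and 3 to 8 in WT at 2 days. Levels of such members rest on few counts. Gene bodies also overlap, since 50 of the 86 members share positions with another annotated gene, 24 of them with a gene on the other strand. Rps3, Rpl3 and Rpl4 hold small nucleolar RNA genes, and Rpl35 overlaps Arpc5l and Wdr38. In the reverse direction, Rpl41 and Rpl38 had all windows shared and still reached 169 and 92.4 CPM per kb. Among the paralogues, Rpl3l, Rpl10l and Rpl39l, known from muscle (Rpl3l) and testis (Rpl10l and Rpl39l), were near 0, with at most 1.51, 0.428 and 0.363 CPM in any library, although at most 12.5% of their windows were shared.

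The start-site stretches were compared because the pyrimidine tract is the hallmark of these messenger RNAs. RefSeq promoter sequences (build GRCm38.p6) were found for 66 of the 86 members. A C at the annotated first transcribed base followed by 4 bases that are each C or T, read on the gene's own strand, stood in 14 of these 66 (21.2%) and in 3.01% of all 27025 genes with a promoter. Within 5 bases of the annotated start it stood in 45.5% of members and 21.2% of all genes. The 4 members of highest level that hold it at the first base are shown, 15 bases before to 15 bases from the start, with the tract in capitals.
Rps21: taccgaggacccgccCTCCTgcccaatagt
Rpl38: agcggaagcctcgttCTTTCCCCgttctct
Rpl14: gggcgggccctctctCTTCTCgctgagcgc
Rplp2: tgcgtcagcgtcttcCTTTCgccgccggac
These stretches lie on the plus strand at chr2:180257364-180257393, chr11:114668565-114668594, chr9:120571502-120571531 and chr7:141447636-141447665. A match describes these letters only.

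Summed over the 86 members, ribosomal protein counts took 1.78%, 1.59%, 1.91%, 1.58% and 0.605% of all counts in the KO libraries 1 to 5 at 14 days, and 1.12%, 1.13%, 2.15%, 1.11% and 1.01% in the WT libraries 1 to 5. At 2 days they took 0.919%, 1.02%, 1.16% and 0.880% in KO and 0.556%, 0.840%, 1.02% and 0.796% in WT. The groups overlapped at both times. Mitochondrially encoded genes took 7.08% to 24.2% of KO counts and 6.21% to 26.3% of WT counts at 14 days, and 27.3% to 39.7% of KO counts and 26.1% to 49.1% of WT counts at 2 days. Of the counts outside these genes, the members took 1.43%, 1.69%, 1.60% and 1.45% in KO at 2 days, all above the 1.09%, 1.23%, 1.38% and 1.14% in WT. At 14 days the same share was 2.35%, 1.84%, 2.32%, 1.90% and 0.651% in KO and 1.24%, 1.21%, 2.92%, 1.25% and 1.09% in WT, so 4 of 5 KO libraries stood above 4 of 5 WT libraries, with KO library 5 and WT library 3 on the opposite sides. No p is given for these sums.

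Ribosomal protein and satellite-like shares ran in opposite directions over the 14 day libraries. KO libraries 1 to 4 and WT library 3 had at most 0.658% of counts in the satellite-like models and 1.58% to 2.15% in ribosomal proteins. KO library 5 and WT libraries 1, 2, 4 and 5 had 1.31% to 47.0% in those models and 0.605% to 1.13% in ribosomal proteins. The mitochondrial share split the libraries into the same sets, at 13.4% to 26.3% in the former and 6.21% to 11.6% in the latter. Outside mitochondrial and satellite-like genes, the shares were 2.36%, 1.85%, 2.32%, 1.92% and 1.32% in KO and 1.28%, 1.23%, 2.92%, 1.34% and 1.23% in WT. The part of the satellite-like counts in the ribosomal protein shares was not tested beyond a fit with them as a covariate, given below. No fit had the mitochondrial share as a covariate, and its part was not tested.

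**Figure D2:**
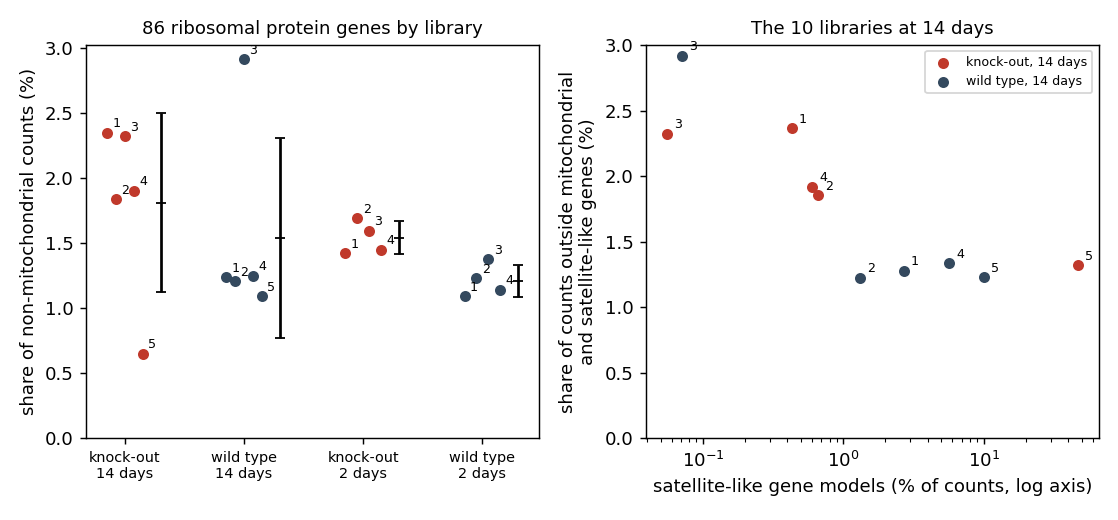
Left, the share of non-mitochondrial counts in the 86 genes, 1 point per library with its number, and mean ± SD per group beside the points; right, for the 10 libraries at 14 days, that share outside mitochondrial and satellite-like genes against the satellite-like share on a log axis. KO library 5 (0.651% at left) lies below all WT libraries, and WT library 3 (2.92%) lies above all KO libraries.

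At 14 days no ribosomal protein gene passed the test between KO and WT, although most estimates were above 0. Of the 83 members tested 0 passed, as did 0 of 13991 genes (0%), at an adjusted p under 0.05 (edgeR quasi-likelihood, Benjamini-Hochberg). DESeq2 called 1 gene and 0 members, and limma voom called 0. At an unadjusted p under 0.05, 5 members were higher in KO and 0 lower, where 3.99% of all genes passed that mark, 2.44% higher and 1.55% lower. The log2 fold change of KO over WT was above 0 for 70 of 83 members, against 51% of all genes, with a median of 0.27 over the members and 0.01 over all genes. No member had every KO library above every WT library or every one below, as 0.272% and 0.257% of all genes did. Without WT library 3 the median was 0.66, and without KO library 1 it was 0.15. Without WT library 5 or without WT library 1 it was 0.17 or 0.18. With the satellite-like share as a covariate it was 0.22, and with the first letter of the library name (B or J, whose meaning the labels do not give) as a term it was 0.32.

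The 5 members of smallest p at 14 days did not pass the test. Rps19bp1, the Rps19-binding protein, had 71.8, 48.0, 92.8, 57.8 and 54.9 CPM in KO libraries 1 to 5 and 37.3, 32.3, 64.9, 45.7 and 38.5 CPM in WT libraries 1 to 5. Every KO library stood above the WT mean, but WT library 3 lay among the KO values. Its log2 fold change was 0.58 ± 0.22 (SE, n = 5 each; edgeR quasi-likelihood test, Benjamini-Hochberg adjusted p = 0.957). Rpl7 of the large subunit had 343.0, 249.6, 299, 237 and 161 CPM in KO and 180.3, 155, 249, 162 and 158 CPM in WT, a log2 fold change of 0.51 ± 0.21. KO library 5 lay among the WT values and WT library 3 among the KO values. The other 3 were Rps2 and Rps4x of the small subunit and Rpl36a of the large subunit, with log2 fold changes of 0.52 ± 0.24, 0.49 ± 0.22 and 0.52 ± 0.24 at the same adjusted p by that test.

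The stalk proteins, which recruit the elongation factors, overlapped widely at 14 days. Rplp0 averaged 654 ± 189.9 CPM in KO and 539.5 ± 207 CPM in WT (SD, n = 5 each). Its log2 fold change was 0.28 ± 0.26. Rplp1 had 148 to 447 CPM in KO, while WT library 3 had 758 CPM and the other WT libraries 159 to 181 CPM. Its log2 fold change was 0.18 ± 0.44, and 0.95 without WT library 3. For Rplp2 the estimate was 0.28 ± 0.46, and 1.13 without that library. Rpsa, the laminin receptor protein of the small subunit, averaged 69.6 ± 14.9 CPM in KO and 67.5 ± 51.0 CPM in WT, a log2 fold change of 0.05 ± 0.34 that was 0.64 without WT library 3 and below 0 without each of 6 other libraries. Rps6, the substrate of the S6 kinases, had 8.08, 8.56, 5.30, 5.22 and 8.56 CPM in KO and 5.64, 5.57, 4.13, 4.82 and 5.95 CPM in WT, a log2 fold change of 0.45 ± 0.26. In this member WT library 3 was the lowest of the 10.

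At 2 days the members again lay mostly above 0 without passing the test. At an adjusted p under 0.05 (edgeR quasi-likelihood, Benjamini-Hochberg), 0 of 80 members and 0 of 13031 genes (0%) passed. DESeq2 called 13 genes and 0 members, and limma voom called 0. At an unadjusted p under 0.05, 12 members were higher in KO and 0 lower, where 4.91% of all genes passed that mark, 2.72% higher and 2.19% lower. The log2 fold change was above 0 for 69 of 80 members, against 51% of all genes, with a median of 0.31 over the members and 0.01 over all genes. With 1 library left out, the members' median was 0.21 (without KO library 2) to 0.37 (without KO library 1). In 10 members every KO library stood above every WT library, against 2.03% of all genes, and in 0 did every KO library stand below, against 1.94%. These included Rps21, Rpl37a, Rpl34, Rplp0, Rpl18, Rpl38, Rpl7a, Rpl31 and Rps19bp1. WT library 1 was the lowest of the 8 libraries for 6 of the 10, and it also had the highest mitochondrial share, 49.1%. The numbers in the names of KO libraries 1 to 4 began with 5, 6, 6 and 6. Those of WT libraries 1 to 4 began with 4, 4, 5 and 6, so the genotypes were not balanced over these digits. The labels do not give their meaning, and no 2 day fit had them as a term.

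Rps21 of the small subunit, whose start-site tract is shown above, had 100.8, 117, 134 and 138 CPM in KO libraries 1 to 4 and 80.8, 82.8, 95.02 and 74.9 CPM in WT libraries 1 to 4. The groups did not overlap, and the log2 fold change of 0.55 ± 0.16 (SE, n = 4 each) did not pass (edgeR quasi-likelihood test, Benjamini-Hochberg adjusted p = 0.866). Rpl37a of the large subunit had 66.6, 97.7, 64.1 and 65.1 CPM in KO and 31.8, 59.3, 52.4 and 47.8 CPM in WT, a log2 fold change of 0.62 ± 0.22. The lowest KO library again stood above the highest WT library. Rpl34 of the large subunit and Rps14 of the small subunit had log2 fold changes of 0.40 ± 0.15 and 0.55 ± 0.22. With 1 library left out they were 0.32 to 0.45 and 0.37 to 0.71, both lowest without WT library 1.

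Of the stalk proteins at 2 days, Rplp0 had 274, 324, 298 and 272 CPM in KO and 129, 213, 270 and 220 CPM in WT, a log2 fold change of 0.49 ± 0.21. The gap between the groups was narrow, since WT library 3 came close to the lowest KO library. Rplp1 and Rplp2 had 0.34 ± 0.17 and 0.55 ± 0.25, and Rpsa had 0.40 ± 0.20. Without WT library 1, Rplp0 and Rplp2 were 0.31 and 0.34, and without WT library 3 they were 0.63 and 0.70. Rps6 was on the other side, with 0.733, 1.92, 1.66 and 1.53 CPM in KO and 0.579, 1.39, 2.19 and 3.72 CPM in WT, a log2 fold change of -0.42 ± 0.67 on 15 to 69 counts per library.

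The median genotype estimate differed between the classes of sequence sharing, given here as a description. For members with fewer than 50% of windows shared, all 13 tested were above 0 at each time, with medians of 0.38 at 14 days and 0.41 at 2 days. For those with 50% or more but not all shared the medians were 0.30 and 0.34, and for those with all windows shared 0.14 and 0.20, with 20 of 31 and 20 of 28 above 0. Members of the last class have the lowest counts, and the part of this in their smaller estimates was not tested. Of the 80 members tested at both times, 60 were above 0 at both (75%), against 24.7% of 12480 genes, and 3 were below 0 at both, against 24.1%. Most members moved together in WT library 3 and in KO library 5 at 14 days. Counts of members above 0, here and in the other comparisons, are therefore not counts of independent observations.

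**Figure D3:**
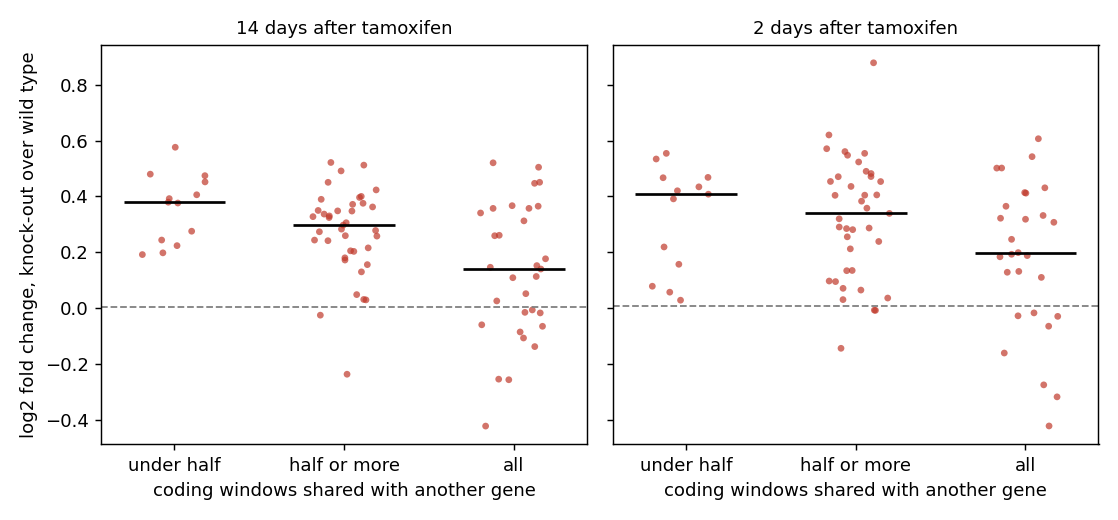
Points are the log2 fold changes of KO over WT for each member tested, at 14 days (left) and 2 days (right), by the share of coding windows found in other genes; black lines are class medians and dashed lines the median of all genes tested. The class medians fall to 0.14 at 14 days and 0.20 at 2 days for members with all windows shared.

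The difference in genotype effect between 14 and 2 days was tested in a fit of all 18 libraries. Of 83 members 0 passed (edgeR quasi-likelihood, smallest Benjamini-Hochberg adjusted p = 0.838, for Rpl12), as did 0 of 15458 genes (0%), while DESeq2 called 13 genes and 0 members and limma voom 0. Of the members 0 had an unadjusted p under 0.05, where 5.96% of all genes did, 2.32% higher and 3.64% lower. The difference was above 0 for 36 of 83 members, against 48.9% of all genes, with a median of -0.03 that was 0.39 without WT library 3 at 14 days. Rpl12, Rpl11, Rpl10a, Rpl36 and Rps27rt had the smallest p, with differences of -0.44 ± 0.25, -0.77 ± 0.43, -0.64 ± 0.37, -0.87 ± 0.55 and -0.64 ± 0.42. Averaged over both times, the log2 fold change was above 0 for 77 of 83 members, against 50.9% of all genes, with a median of 0.29, and for all 31 of the small subunit. No member passed, and 1 of 15458 genes did (0.00647%), Arhgap31. DESeq2 called 7 genes and 0 members, and limma voom 1 gene and 0 members. At an unadjusted p under 0.05, 7 members were higher and 0 lower, against 3.24% and 2.57% of all genes (5.81% in all). The smallest p belonged to Rps19bp1 (0.50 ± 0.17), Rpl7a (0.41 ± 0.16), Rpl7 (0.31 ± 0.13), Rps4x (0.34 ± 0.15) and Rps9 (0.45 ± 0.21), all at a Benjamini-Hochberg adjusted p of 0.8293 by edgeR's quasi-likelihood test. Without WT library 3 of the 14 day set the averaged median was 0.48.

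The summed levels of markers of intestinal cell types overlapped between genotypes at both times, except for immune markers at 2 days. At 14 days the summed CPM of 12 enterocyte markers was 912 to 4007 in KO and 1057 to 5901 in WT, that of 7 goblet markers 1493 to 10922 in KO and 1178 to 3988 in WT, and that of 8 Paneth markers 2743 to 4570 in KO and 1716 to 13963 in WT. At 2 days the 12 enterocyte markers summed to 1439 to 5788 CPM in KO and 1392 to 1935 CPM in WT, the 7 goblet markers to 554 to 1467 and 543 to 787, and the 8 Paneth markers to 768 to 2217 and 228 to 3505. The 10 stem markers summed to 1925 to 2743 CPM in KO and 2172 to 2869 CPM in WT at 14 days, and to 5249 to 6151 CPM in KO and 6008 to 6879 CPM in WT at 2 days. The 6 proliferation genes summed to 1155 to 1722 CPM in KO and 1385 to 1627 CPM in WT at 14 days, and to 2376 to 2690 CPM in KO and 2570 to 4218 CPM in WT at 2 days. The 9 immune markers summed to 3.56 to 12.4 CPM in KO and 4.71 to 8.21 CPM in WT at 14 days, and to 8.73 to 11.04 CPM in KO and 12.4 to 69.0 CPM in WT at 2 days, where the groups did not overlap. In these sorted pools a different mix of cells and a different amount of RNA per cell cannot be told apart, and the part of either in the ribosomal protein estimates was not tested.

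Other genes of translation did not pass between genotypes either, at an adjusted p under 0.05 by the same test. Fau and Rack1 were above 0 at both times. Fau, which carries the small subunit protein eS30, had 0.15 ± 0.28 at 14 days and 0.48 ± 0.43 at 2 days. Rack1, a scaffold on the small subunit, had 0.25 ± 0.28 and 0.21 ± 0.15. The 20 other mRNAs with a pyrimidine tract had 15 and 13 above 0 at 14 and 2 days, with medians of 0.18 and 0.12, and 0 passed. Among 35 translation initiation factors, 0 passed at either time, 25 and 15 were above 0 at 14 and 2 days, and the medians were 0.06 and -0.03. The 75 ribosome biogenesis factors had 40 and 28 above 0, with medians of 0.01 and -0.09, and 0 passed. Of the initiation factors, Eif3g had 0.43 ± 0.17 at 14 days and 0.53 ± 0.23 at 2 days, while Eif3a, the largest subunit of the same complex, had -0.05 ± 0.15 and -0.53 ± 0.21. Of the 22 mTOR, Larp1 and Myc regulators, 0 passed, and 6 and 9 were above 0, with medians of -0.11 and -0.06.

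Between 14 and 2 days many members differed, in shares below those of all genes. Each time is a separate table, so time cannot be told apart from a separate run or cohort. In KO libraries 33 of 83 members passed (39.8%), with 28 higher and 5 lower at 14 days, where 50.4% of all 15458 genes passed (edgeR quasi-likelihood, Benjamini-Hochberg adjusted p under 0.05). In WT libraries 40 of 83 passed (48.2%), with 34 higher and 6 lower, where 53.4% of all genes passed. The share of calls that were higher was larger than among all genes, since 25.3% of all genes were higher and 25.1% lower in KO, and 27.7% higher and 25.7% lower in WT. The log2 fold change was above 0 for 59 members in KO, against 52% of all genes, and for 63 in WT, against 53.5%. The members' median log2 fold change was 0.53 in KO, against 0.06 for all genes, and 0.58 in WT, against 0.12. Both counts of members lower moved with 1 library. Without WT library 3 at 14 days, 46 members were called in WT, 27 higher and 19 lower, where 26.6% of all genes were higher and 25.7% lower, and the WT median was 0.22. In KO, whose spread is estimated over all libraries together, 44 members were then called, 34 higher and 10 lower, where 26.1% and 26% of all genes were. In both genotypes 26 members passed as higher, 31.3% against 20.8% of all genes, and 4 as lower, 4.82% against 21.5%. The number that passed in opposite directions was 0, as it was among all genes. Markers of cell types also differed with time. The summed stem and proliferation markers given above were lower at 14 days than at 2 days, and the goblet markers higher, with no overlap between times in either genotype, while the Paneth markers were higher without overlap in KO and overlapped in WT. The summed enterocyte markers overlapped between times in both genotypes. The goblet peptide gene Tff3 averaged 879.7 CPM in KO and 504 CPM in WT at 14 days, against 86.6 CPM in KO and 47.8 CPM in WT at 2 days, and the Paneth defensin gene Defa24 averaged 2316 CPM in KO and 3015 CPM in WT, against 439 CPM and 345 CPM. The part of these cell types in the ribosomal protein differences with time was not tested.

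**Figure D4:**
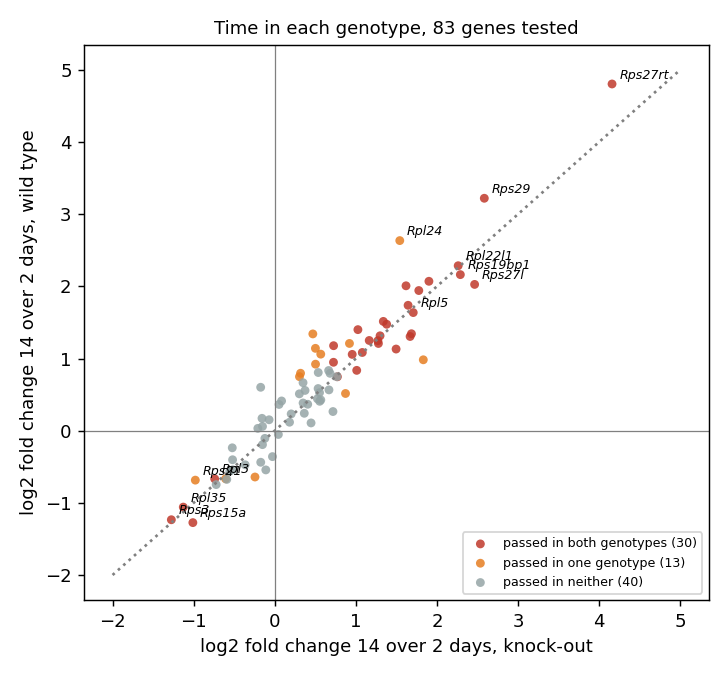
Each point is 1 of 83 members, with its log2 fold change of 14 over 2 days in KO (x axis) and in WT (y axis), coloured by where it passed the adjusted test; the dotted line marks equal values. Rps27rt lies farthest up, at 4.16 in KO and 4.80 in WT, and Rps3 and Rps15a lie at the lower left.

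Paralogues were among the members that differed most with time, and the Rps27 family is given first. Rps27rt is annotated with 1 coding exon, and Rps27l with 4, like Rps27. Their coding sequences are shown because they decide which reads can tell the copies apart. Capitals mark bases that differ from Rps27.
Rps27: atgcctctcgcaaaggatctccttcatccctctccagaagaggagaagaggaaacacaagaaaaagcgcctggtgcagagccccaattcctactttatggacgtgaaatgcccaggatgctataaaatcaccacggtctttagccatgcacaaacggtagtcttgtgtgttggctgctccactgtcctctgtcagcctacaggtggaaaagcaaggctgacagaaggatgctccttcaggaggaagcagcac
Rps27rt: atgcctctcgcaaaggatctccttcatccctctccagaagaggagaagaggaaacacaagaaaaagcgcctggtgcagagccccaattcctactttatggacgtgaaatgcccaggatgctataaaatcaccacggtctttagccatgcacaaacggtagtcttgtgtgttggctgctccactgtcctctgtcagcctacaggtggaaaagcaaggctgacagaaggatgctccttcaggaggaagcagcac
Rps27l: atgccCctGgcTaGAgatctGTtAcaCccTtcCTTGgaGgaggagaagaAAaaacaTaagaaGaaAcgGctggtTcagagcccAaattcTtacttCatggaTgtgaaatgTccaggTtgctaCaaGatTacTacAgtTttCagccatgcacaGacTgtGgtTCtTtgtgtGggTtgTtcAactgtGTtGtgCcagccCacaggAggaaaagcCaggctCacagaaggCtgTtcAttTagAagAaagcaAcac
All 3 have 252 coding bases. Rps27rt (chr9:114982366-114982739, minus strand) does not differ from Rps27 (chr3:90212522-90213651, minus strand) at any of them, and Rps27l (chr9:66946086-66949516, plus strand) differs at 60, an identity of 76.2%. Within its coding sequence a read from Rps27rt can therefore not be told from a spliced read of Rps27.

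Rps27rt had 15.02, 15.1, 13.7, 17.4 and 15.7 CPM in KO and 12.2, 23.3, 14.9, 20.2 and 15.2 CPM in WT at 14 days, against 0.930, 0.624, 1.18 and 0.717 CPM in KO and 0.557, 0.933, 0.548 and 0.384 CPM in WT at 2 days. Every 14 day library stood far above every 2 day library, and the genotypes overlapped at each time. The log2 fold change of 14 over 2 days was 4.16 ± 0.32 in KO, with an adjusted p of 1.7e-09, and 4.80 ± 0.34 in WT, with an adjusted p of 3.9e-10 (edgeR quasi-likelihood test, Benjamini-Hochberg adjustment). At 2 days it rested on 6 to 19 counts per library, and at 14 days on 130 to 448. Rps27rt overlaps Osbpl10 on the other strand, and whether the counting used strand is not given in the sources used here. Osbpl10 itself had a log2 fold change of 0.36 ± 0.28 in KO and 0.49 ± 0.28 in WT and did not pass. Rps27, of the same coding sequence, had 0.801 to 2.90 CPM in KO and 0.770 to 2.30 CPM in WT at 14 days, against 0.262 to 0.789 CPM in KO and 0.2998 to 0.576 CPM in WT at 2 days. At these low levels Rps27 also passed as higher at 14 days by that test, with log2 fold changes of 1.62 ± 0.59 in KO and 2.01 ± 0.60 in WT.

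Rps27l, the p53-responsive paralogue, had 373, 239, 324, 241 and 127 CPM in KO and 149, 130, 387, 154 and 126 CPM in WT at 14 days. At 2 days it had 41.7, 46.2, 56.9 and 44.3 CPM in KO and 90.0, 25.2, 37.0 and 33.1 CPM in WT. Every 14 day library was above every 2 day library, by log2 fold changes of 2.47 ± 0.39 in KO and 2.03 ± 0.38 in WT, both past the test. Between genotypes its log2 fold change was 0.48 ± 0.33 at 14 days, and 0.91 without WT library 3, and 0.03 ± 0.34 at 2 days. Rpl22l1, the paralogue of Rpl22, had 33.2 to 47.0 CPM in KO and 32.4 to 68.5 CPM in WT at 14 days, against 6.74 to 9.92 CPM in KO and 6.37 to 13.4 CPM in WT at 2 days. It passed as higher at 14 days, with 2.26 ± 0.27 in KO and 2.29 ± 0.27 in WT. Rpl22 itself, set beside it after the values were seen, had -0.72 ± 0.34 in KO and -0.75 ± 0.34 in WT and did not pass. This rested on WT library 3, which had 447 CPM at 14 days, against 110.1 to 125 CPM in the other WT libraries at 14 days and 261 to 384 CPM in WT at 2 days. Without it Rpl22 passed as lower in both, with -0.72 ± 0.20 in KO and -1.38 ± 0.21 in WT. Rpl36al, a relative with 1 coding exon that is 87.7% identical in coding sequence to Rpl36a, passed as higher in KO (0.87 ± 0.35) and did not pass in WT (0.52 ± 0.34, and -0.07 without WT library 3 at 14 days). Its KO call was lost without KO library 1 or 4 at 2 days or 1, 3 or 4 at 14 days. Rpl7l1 passed as higher in both, with 1.01 ± 0.20 in KO and 0.84 ± 0.20 in WT.

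**Figure D5:**
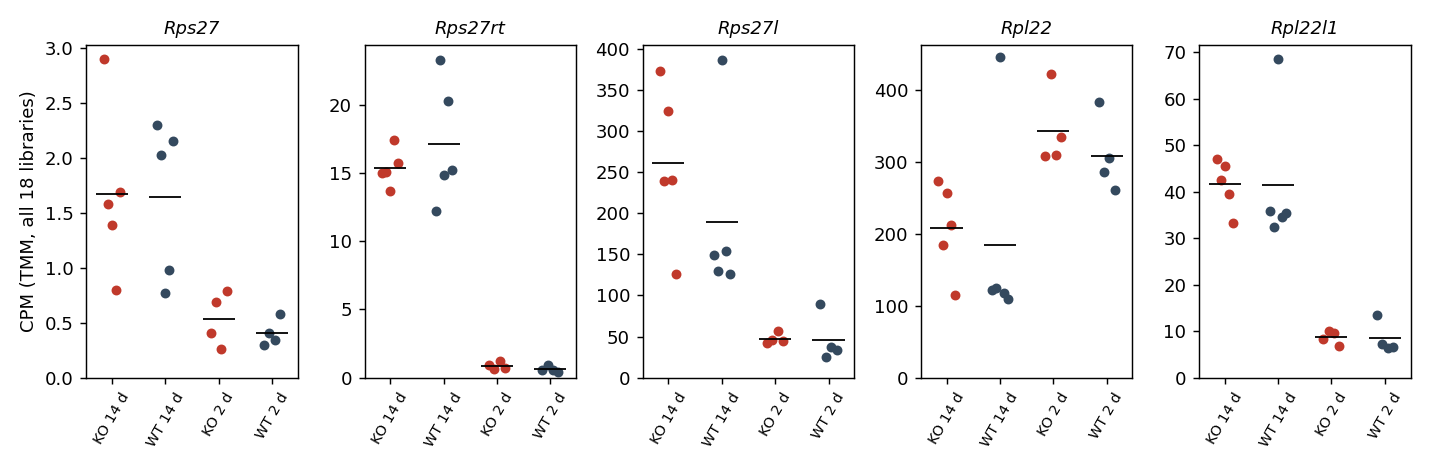
CPM scaled over all 18 libraries for Rps27, Rps27rt, Rps27l, Rpl22 and Rpl22l1, 1 point per library and a black line at the group mean, each panel on its own axis from 0. Rps27rt, Rps27l and Rpl22l1 are higher in every 14 day library than in every 2 day library, and the KO and WT points overlap at both times.

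Rps19bp1 was also higher at 14 days, with 41.004 to 82.0 CPM in KO and 28.6 to 57.8 CPM in WT, against 11.2 to 12.2 CPM in KO and 5.65 to 10.8 CPM in WT at 2 days, log2 fold changes of 2.29 ± 0.25 and 2.16 ± 0.25 that passed the test. Of the canonical small subunit members, Rps29 had the largest increase, 2.58 ± 0.53 in KO and 3.22 ± 0.56 in WT. It rested on 34 to 141 counts per library at 14 days and 3 to 41 at 2 days. Rps27a, a fusion of ubiquitin and a small subunit protein, rose by 1.90 ± 0.48 in KO and 2.07 ± 0.48 in WT. Of the large subunit, Rpl5, which with Rpl11 and the 5S RNA binds Mdm2 when ribosome assembly fails, rose by 1.71 ± 0.31 in KO and 1.64 ± 0.31 in WT. Rpl11 did not pass, with -0.17 ± 0.31 in KO and 0.60 ± 0.31 in WT, although it passed in WT without WT library 2 at 2 days (0.82). Rpl24 rose in WT by 2.63 ± 0.68 and did not pass in KO, with 1.54 ± 0.65, on the few counts given above, although it passed in both without WT library 3. Rps6 rose in KO by 1.83 ± 0.46 and did not pass in WT, with 0.98 ± 0.45, or 1.49 and past the test without WT library 4 at 2 days. It also passed in WT with DESeq2, limma voom, upper-quartile factors or a minimum count of 50. The difference between these genotypes for Rps6, 0.85 ± 0.62, did not pass either (edgeR quasi-likelihood test, Benjamini-Hochberg adjusted p = 0.863).

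The stalk proteins Rplp0 and Rplp1 passed as higher at 14 days in both genotypes, by 0.72 ± 0.26 and 1.34 ± 0.40 in KO and by 0.95 ± 0.26 and 1.51 ± 0.41 in WT. Without WT library 3, the WT values were 0.68 and 0.74. Rplp2 passed in WT (1.21 ± 0.45, and 0.35 without WT library 3) and not in KO (0.92 ± 0.44). Rplp2 also did not pass in WT without WT library 1 at 2 days or with limma voom (adjusted p = 0.0747), and Rplp0 did not pass in KO without KO library 1 or 4 at 2 days or 1 or 3 at 14 days. Rpsa rose by 1.03 ± 0.32 in KO and 1.40 ± 0.33 in WT, and by 0.80 in WT without WT library 3.

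The members that passed as lower at 14 days included Rps3, which is among the most highly counted. Rps3, which lines the mRNA entry of the small subunit, had 1343, 887, 1390, 943 and 571 CPM in KO and 647, 622, 1506, 629 and 553 CPM in WT at 14 days. At 2 days it had 2431, 2281, 2826 and 2404 CPM in KO and 1306, 1945, 2441 and 1755 CPM in WT. The KO times did not overlap, the WT times did through WT library 3, and the log2 fold changes were -1.28 ± 0.29 in KO and -1.23 ± 0.29 in WT, and -1.60 in WT without that library. Rpl3 of the peptidyl transferase centre had 88.4 to 110.1 CPM in KO and 85.99 to 121 CPM in WT at 14 days, against 139 to 178 CPM in KO and 135 to 169 CPM in WT at 2 days. It fell by 0.74 ± 0.14 in KO and 0.67 ± 0.14 in WT on the log2 scale, with no overlap between times and WT library 3 among the others. Rps15a fell by 1.01 ± 0.37 in KO and 1.27 ± 0.37 in WT, and Rpl35 fell by 1.13 ± 0.35 and 1.06 ± 0.35. Without WT library 3 the WT values were -1.95 and -1.60. In KO, Rps15a did not pass without KO library 3 or 4 at 2 days or 2, 4 or 5 at 14 days, and Rpl35 did not pass without KO library 2 at 2 days. Rps21 fell in KO by 0.98 ± 0.36 and did not pass in WT, with -0.69 ± 0.36, while without WT library 3 it passed in both, with -1.38 in WT. In KO it did not pass without KO library 2, 3 or 4 at 2 days or 2 or 5 at 14 days. Rps25 and Rpl36a passed as lower in WT, by 0.67 ± 0.27 and 0.64 ± 0.25, and did not pass in KO, with -0.61 ± 0.27 and -0.24 ± 0.25. Both WT calls lay near the threshold and were lost under several alternatives, at a largest adjusted p of 0.0730 for Rps25 (edgeR quasi-likelihood, upper-quartile factors) and 0.143 for Rpl36a (edgeR quasi-likelihood, no filter on low counts). Rps25 in WT was also lost without any 1 of the WT libraries other than library 3 at 14 days and without KO library 2, 3 or 4 at 2 days or 4 at 14 days, and Rpl36a without WT library 1, 2 or 3 at 2 days or 1, 4 or 5 at 14 days. Rps25 was -1.06 in WT without WT library 3 and then passed in KO too.

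The other genes of translation were mixed, by the same test. Fau and Rack1 passed as higher at 14 days in both genotypes, by 1.82 ± 0.31 and 1.28 ± 0.25 in KO and by 2.17 ± 0.32 and 1.25 ± 0.25 in WT. Of 35 initiation factors, 11 were higher and 11 lower in KO, and 9 higher and 13 lower in WT. Pabpc1, the poly(A)-binding protein, fell by 1.76 ± 0.17 in KO and 1.87 ± 0.17 in WT, and Eif4g1, the scaffold of the cap-binding complex, fell by 1.23 ± 0.14 in each. Of 12 elongation and termination factors, 4 were higher and 4 lower in KO, and 3 higher and 5 lower in WT. Eef2, which translocates the ribosome, fell by 1.95 ± 0.21 in KO and 1.53 ± 0.20 in WT. Of 20 other mRNAs with a pyrimidine tract, 6 were higher in each genotype, with 6 lower in KO and 8 lower in WT. Of 75 biogenesis factors, 24 were higher and 20 lower in KO, and 23 higher and 26 lower in WT. The 22 mTOR, Larp1 and Myc regulators had 3 higher and 12 lower in each genotype.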

How the data were processed

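RNA of sorted cells was selected on poly(A) beads and made into SmartSeq and Nextera XT libraries, per the labels' protocols. The authors deposited 1 table of counts per gene for each time, whole numbers that are not normalized. The submitters' processing notes name bcl2fastq 2.20.0.422, STAR 2.4.2a and the GRCm38 build. The sources used here do not give the counter, its annotation, its strand setting or how it handled reads matching several loci. No molecular identifiers are named, so counts include amplified copies.

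Genes were named from GENCODE M21 (42548 of 43432 identifiers). Counts without a symbol took at most 0.185% of a library. At most 1.21% of genes had equal counts in 2 libraries of a group, so no library was treated as a repeat. Each time was fitted alone, and all 18 libraries together for time, with edgeR 4.0.16 in R 4.3.3 (filterByExpr minimum count 10, TMM, quasi-likelihood test, Benjamini-Hochberg over all genes, threshold 0.05). The procedure was tested on simulated data with changes larger than the members' genotype estimates and with no outlying library. That test cannot show how well changes of the size seen between genotypes would be found. CPM within a time uses that table's scaling, and CPM compared between times uses scaling over all libraries. DESeq2 1.42.0, limma 3.58.1, other scalings, other filters and leaving out each library were alternatives. Named members were those called (the 6 largest per direction) or, where fewer than 5 were called, the 5 of smallest p. The 4 highest and 4 lowest levels, the paralogues, the stalk and a few well-known members were added. A few genes that the rules pick are not reported here. Members and lists were chosen with earlier results of these data known.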

Additional observations from a re-analysis of the deposited data

Results flagged for a closer look

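A gap test on the highest and lowest library of each group (Dixon, 95% level) marked 18 of 80 groups of values. These groups come from the same 18 libraries and are not independent, so 18 of 80 cannot be set against a chance rate. Of the marked groups, 14 fell in WT library 3 at 14 days. Its ribosomal protein share was 2.15% of all counts, against 1.01% to 1.13% in the other WT libraries, and 2.92% of the counts outside mitochondrial genes, against 1.09% to 1.25%. Its CPM was 387.5 for Rpl34, 189.6 for Rpl36al, 217.3 for Rpl37a, 249 for Rpl7, 902.8 for Rplp0, 758.4 for Rplp1, 417.2 for Rplp2, 1337 for Rps14, 175.1 for Rps21, 434.5 for Rps27l, 121.2 for Rps4x and 158.6 for Rpsa. In each of these genes it was the highest WT library.

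KO library 5 at 14 days had the lowest ribosomal protein share, 0.605% of counts, against 1.58% to 1.91% in the other KO libraries. At 2 days, KO library 2 was high for Rpl37a at 97.7 CPM, against 64.1 to 66.6 CPM in the other KO libraries. The same library was low for Rpl7 at 61.45 CPM, against 69.0 to 69.6 CPM. KO library 4 was high for Rps19bp1 at 10.4 CPM, against 9.52 to 9.67 CPM.

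For Rps6, every KO library lay above the WT mean at 14 days and every one below it at 2 days. The difference of 0.85 on the log2 scale did not pass the test of that difference (edgeR quasi-likelihood, Benjamini-Hochberg adjusted p = 0.863).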

How the results depend on the processing

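No member passed between genotypes under any alternative run. Over all genes, the number called was 7 at 2 days and 2 at 14 days with no filter on low counts, 98 for the difference between times and 40 averaged over times. With DESeq2 these counts were 13, 1, 13 and 7. A joint fit of all libraries gave 2 at 2 days. Leaving out 1 library gave 0 to 1 at 2 days, 0 to 1 for the difference and 1 to 2 averaged. With the longest transcript as length, the median canonical level was 47.7 CPM per kb. The WT median with time ranged over 0.22 (without WT library 3 at 14 days) to 0.70. The number of members lower at 14 days was 5 to 8 in KO and 4 to 12 in WT over the alternatives with all libraries (12 with limma voom), and 3 to 10 and 4 to 19 with 1 library left out.

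For 5 named members the estimate changed sign, none of which had passed the test, and the cause was not tested. Rps6 at 2 days was 0.0020 with limma voom and -0.73 to 0.085 with 1 library left out. With 1 library left out, Rps27l at 2 days was -0.17 to 0.57, Rpsa at 14 days -0.082 to 0.64, Rpl36al with time in WT -0.068 to 0.67, and Rpl11 with time in KO -0.34 to 0.067. The KO minus WT share of counts was 0.191 percentage points at 14 days, but 0.0870, 0.119 and 0.117 without KO library 3, KO library 1 or WT library 5, and 0.413 and 0.402 without KO library 5 or WT library 3. At 2 days it was 0.193, and 0.111 (without WT library 1) to 0.264 with 1 library left out. No paired analysis was possible because the columns carry no replicate numbers that match the labels. Members with few counts, such as Rpl24 and Rps27, limit what depth can show.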
